A study of Mus musculus with 18 samples.

Results

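The interleukin 6 family and interleukin 33 signalling are described here through 10 genes, chosen by their symbols and not by any measured value: the ligands Il6, Il11 and Lif, the receptor chains Il6st, Osmr and Lifr, the transcription factor Stat3, its feedback inhibitor Socs3, and Il33 with its receptor Il1rl1. Of these 10 genes, 9 had a probe set with their symbol alone, among 19938 genes measured in this way, and Il1rl1 was not analysed here. A gene is given by the brightest of its probe sets, and each value is a log2 signal.

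The cells were MLg 2908, an established line of lung fibroblasts from newborn wild-type mice of the ddY strain, so that all samples come from 1 line. They were plated on top of a 3D collagen matrix without a further genetic change, and the cells that had entered the gel (invading) were separated from those that had not (non-invading) after 72 or 96 hours. There were 4 samples per fraction at 72 hours and 5 per fraction at 96 hours, 18 in all, named as biological replicates. The treatment entry of every sample also mentions TGFB1, an activator of fibroblasts, whereas the titles name no treatment. The groups are read here as untreated, which the labels leave unsettled. The legend of the paper's heatmaps of these arrays lists the mark n.t. for non-treated. The comparisons ask how these genes differ between the fractions at each time, and between 96 and 72 hours within a fraction.

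Ligands of the interleukin 6 family bind a receptor chain of their own and the shared chain gp130, which Il6st encodes. Lifr and Osmr encode the chains that pair with gp130 for leukemia inhibitory factor (Lif) and oncostatin M. The bound complex activates Janus kinases, which phosphorylate STAT3, and STAT3 in turn drives the transcription of Socs3, whose product blocks signalling at gp130. Interleukin 33 is a nuclear cytokine of barrier and stromal cells that, once released, acts on the receptor encoded by Il1rl1 together with the co-receptor Il1rap and the adaptor MyD88, and so on NF-kB. Both pathways are studied in lung fibrosis, where fibroblasts are sources and targets of these cytokines.

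The sequences before the transcription start are shown for the members on which the results turned: Lif among the ligands, Il6st among the receptors, and Socs3, which differed between the times. They come from RefSeq on build GRCm38.p6, where the 10 genes have 14 windows of 300 bases. They run 5′ to 3′ on the strand of the gene from 250 bases before the start, up to the base before it, or up to 6 bases after it in Il6st, where a match crosses the start. Capitals mark matches, on either strand, to TTCNNNGAA (STAT), TGANTCA (AP-1) or the loose NF-kB motif (GGG, any 5 bases, then CC).
Lif, chr11:4257318-4257567, plus strand: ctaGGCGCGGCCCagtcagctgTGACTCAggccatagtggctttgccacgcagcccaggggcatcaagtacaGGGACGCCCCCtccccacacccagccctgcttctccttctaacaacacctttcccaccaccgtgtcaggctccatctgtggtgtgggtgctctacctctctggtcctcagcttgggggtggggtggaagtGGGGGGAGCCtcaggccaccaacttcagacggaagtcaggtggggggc
Socs3, chr11:117969367-117969616, minus strand: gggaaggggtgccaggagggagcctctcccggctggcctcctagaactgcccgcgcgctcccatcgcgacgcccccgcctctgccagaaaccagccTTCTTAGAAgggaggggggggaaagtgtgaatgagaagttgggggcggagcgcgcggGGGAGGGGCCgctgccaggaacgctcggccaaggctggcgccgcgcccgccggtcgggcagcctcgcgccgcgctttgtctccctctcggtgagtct
Il6st, chr13:112463820-112464075, plus strand: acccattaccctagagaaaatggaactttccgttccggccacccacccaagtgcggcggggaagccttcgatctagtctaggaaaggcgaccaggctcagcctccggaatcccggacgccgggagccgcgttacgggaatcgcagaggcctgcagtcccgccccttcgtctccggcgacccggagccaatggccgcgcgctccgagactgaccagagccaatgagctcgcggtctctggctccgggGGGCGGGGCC
The capitals TTCTTAGAA of Socs3, at bases -154 to -146, were the only STAT match in any window of the 10 genes. Of all 32851 promoter windows of this length, 8.3% hold such a match. Lif holds an AP-1 match, TGACTCA at bases -228 to -222, which 7.81% of all windows have. Windows of Il6, Il11 and Osmr, not printed here, hold an AP-1 match as well. The run GGGACGCCCCC in Lif is made of 2 overlapping NF-kB matches. The remaining capitals are NF-kB matches, and with 50.8% of all windows holding at least 1 of them these letters are common. A match is only a description of the letters.

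Between the fractions, Il6st was the member that differed at both times, and it was lower in invading cells. Stat3 was higher in invading cells at 72 hours, and Lif, Il6 and Il33 were higher at 96 hours. By the limma test, with p adjusted by Benjamini and Hochberg over all 35556 probe sets and a call at an adjusted p under 0.10, 1 of 9 members was higher and 1 lower at 72 hours, where 13.0% of all genes were higher and 13.5% lower. At 96 hours 3 of 9 were higher and 1 lower, against 16.7% and 14.7% of all genes. None of the called ratios exceeded 1.5-fold. With each array centred on its median, the split was 2 higher to 1 lower (72 hours) and 6 to 1 (96 hours). Centring also moved the median log2 ratio of all genes, from 0.04 to 0.12 at 72 hours and from 0.02 to 0.14 at 96 hours. Shares of all genes are given throughout for the values as deposited, also where a count follows another scaling. A count under another scaling can therefore not be set against a share of all genes. The number of arrays limits the precision, and in RNA from many cells fewer cells of a type and less RNA per cell cannot be told apart.

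**Figure D1:**
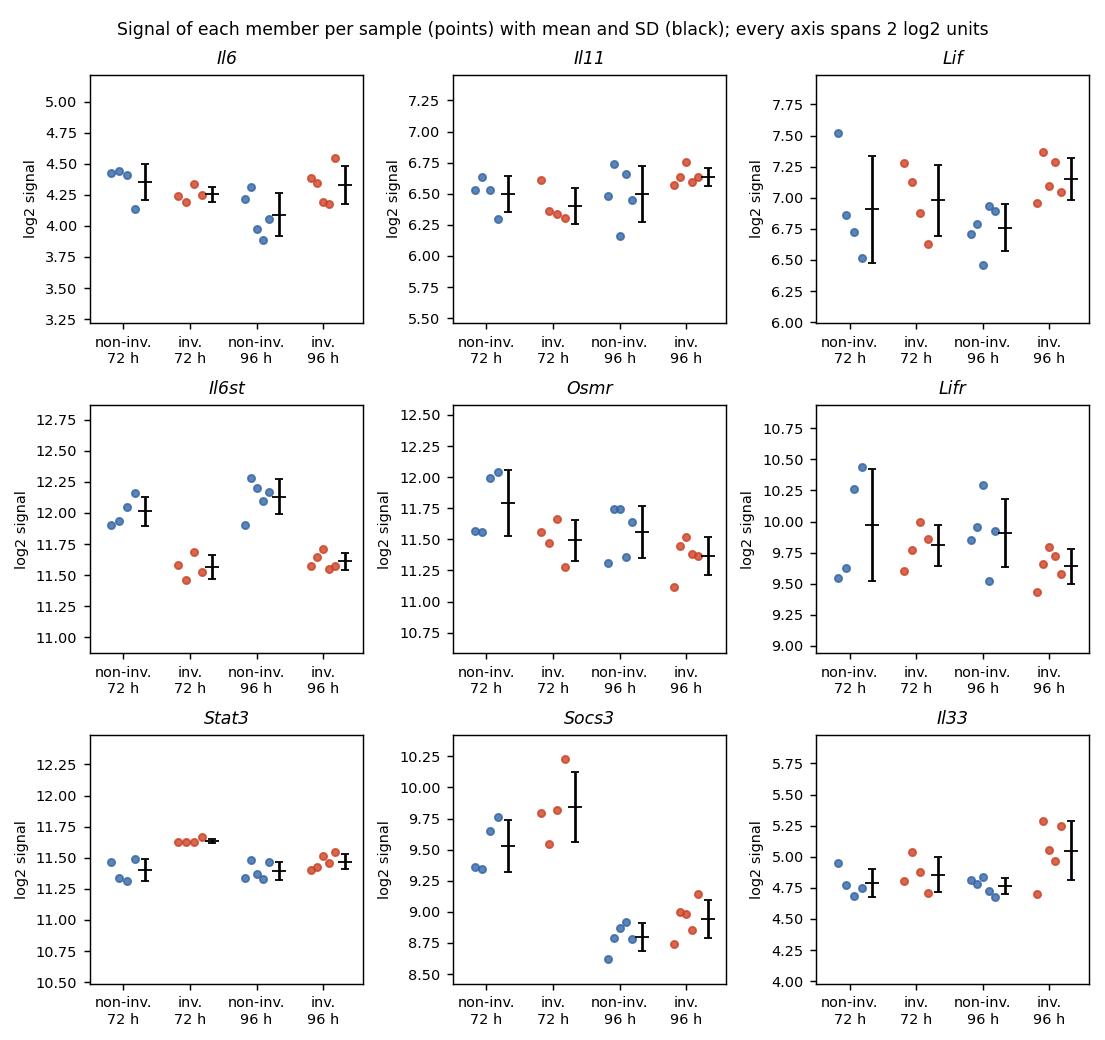
Log2 signal (y axis) of the 9 measured members in each sample of the non-invading (blue) and invading (red) fractions at 72 hours (4 samples each) and 96 hours (5 each). Points are samples, black marks are the mean and SD, and every axis spans 2 log2 units around its own gene. The fractions separate for Il6st at both times, and Socs3 lies lower at 96 hours than at 72 hours in both fractions.

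Among the ligands, Lif, which maintains embryonic stem cells and acts on fibroblasts through Lifr, gave the largest difference. At 96 hours its log2 signals were 6.96, 7.37, 7.10, 7.29 and 7.04 in the invading samples and 6.70, 6.79, 6.46, 6.94 and 6.90 in the non-invading samples. Every invading sample lay above every non-invading sample, although the nearest values of the fractions, 6.96 and 6.94, almost touched. The log2 ratio of invading to non-invading cells was 0.39 ± 0.10 (SE, n = 5 per fraction), a ratio of 1.31 (adjusted p = 0.017, limma). At 72 hours Lif read 7.28, 7.12, 6.88 and 6.63 in invading and 7.52, 6.86, 6.73 and 6.51 in non-invading cells. The fractions overlapped over most of their range, with replicate 1 the highest in both. The log2 ratio at 72 hours was 0.07 with a 95% interval from -0.42 to 0.56 (adjusted p = 0.85, limma). The promoter of Lif shown above is the one among the printed sequences with an AP-1 match.

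Il6, the founding ligand of the family, was dim. It stayed below a linear signal of 100, which is 6.64 on the log2 scale, in all 18 samples. At 96 hours the invading samples read 4.38, 4.35, 4.19, 4.17 and 4.55, and the non-invading samples 4.22, 4.32, 3.98, 3.89 and 4.05. The fractions overlapped, with the 2 lowest invading values inside the range of the non-invading samples. The log2 ratio was 0.24 ± 0.10 (SE), a ratio of 1.18 (adjusted p = 0.094, limma). This call was lost without invading replicate 1 (adjusted p = 0.15), 2 (0.15) or 5 (0.19), or without non-invading replicate 3 (0.18), 4 (0.19) or 5 (0.16). At 72 hours Il6 read 4.24, 4.19, 4.34 and 4.24 in invading and 4.42, 4.44, 4.41 and 4.14 in non-invading cells. Here 3 of the 4 non-invading samples lay above every invading sample and the last one below them all, and the log2 ratio was -0.10 with a 95% interval from -0.29 to 0.09 (adjusted p = 0.45).

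Il11, a ligand known as a fibroblast product in fibrosis, lay around the linear signal of 100 and passed it in 3 of 18 samples. Its mean log2 signal was 6.40 ± 0.14 (SD) in invading and 6.50 ± 0.14 in non-invading cells at 72 hours. At 96 hours the means were 6.64 ± 0.07 and 6.50 ± 0.22. The fractions overlapped at both times, with log2 ratios of -0.10 (adjusted p = 0.54, limma) and 0.14 (adjusted p = 0.33), and a 95% interval from -0.08 to 0.36 at 96 hours. The second ratio was 0.26 and passed both with a second quantile normalization (adjusted p = 0.062) and with centring on the array median (adjusted p = 0.054).

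Il6st was among the brightest members. At 72 hours its log2 signals were 11.58, 11.46, 11.69 and 11.53 in invading cells and 11.90, 11.94, 12.05 and 12.16 in non-invading cells. At 96 hours they were 11.58, 11.64, 11.71, 11.55 and 11.58 against 11.91, 12.28, 12.20, 12.10 and 12.17. All 9 invading samples lay below all 9 non-invading samples, across both times. The log2 ratio was -0.45 ± 0.08 (SE, n = 4 per fraction) at 72 hours, a ratio of 0.733 (adjusted p = 0.0056, limma). At 96 hours it was -0.52 ± 0.07 (SE, n = 5 per fraction), a ratio of 0.697 (adjusted p = 0.00044, limma). Ordered by their means, the groups ran from non-invading at 96 hours (12.13) and at 72 hours (12.01) to invading at 96 hours (11.61) and at 72 hours (11.56). In this order the neighbours within a fraction did not differ beyond their spread (adjusted p = 0.30 and 0.70).

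The chains that pair with gp130 leaned the same way as Il6st without passing the test. For Osmr, the oncostatin M receptor chain, the mean log2 signal was 11.49 ± 0.17 (SD) in invading and 11.79 ± 0.27 in non-invading cells at 72 hours, and 11.37 ± 0.15 and 11.56 ± 0.21 at 96 hours. Its log2 ratios were -0.30 (95% interval -0.61 to 0.01, adjusted p = 0.16, limma) and -0.19 (95% interval -0.43 to 0.04, adjusted p = 0.20). Without non-invading replicate 1 of 96 hours the second ratio was -0.26 and passed (adjusted p = 0.095). The ratio at 96 hours also passed with the replicate number as a block. For Lifr, the chain that binds leukemia inhibitory factor, the means were 9.81 ± 0.17 and 9.97 ± 0.45 at 72 hours, and 9.64 ± 0.14 and 9.91 ± 0.28 at 96 hours. The log2 ratios were -0.16 (adjusted p = 0.62) and -0.27 (95% interval -0.54 to 0.00, adjusted p = 0.13), and the ratio at 96 hours was -0.37 and passed without non-invading replicate 4 (adjusted p = 0.024), and passed unchanged in size when the test was limited to probe sets with 1 symbol (adjusted p = 0.099). The wide spread of the non-invading samples at 72 hours had the same form in both genes. Replicates 1 and 2 read 11.57 and 11.56 for Osmr and 9.54 and 9.63 for Lifr, whereas replicates 3 and 4 read 12.00 and 12.04 for Osmr and 10.26 and 10.44 for Lifr. Replicates 3 and 4 were thus the highest of all 18 samples for Osmr, and replicate 4 the highest for Lifr.

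Stat3 was bright and varied little. At 72 hours it read 11.63, 11.62, 11.63 and 11.66 in invading cells and 11.46, 11.34, 11.31 and 11.49 in non-invading cells. The fractions did not overlap, and the log2 ratio was 0.23 ± 0.06 (SE), a ratio of 1.18 (adjusted p = 0.031, limma). At 96 hours the invading samples read 11.40, 11.43, 11.51, 11.46 and 11.55, and the non-invading samples 11.34, 11.48, 11.37, 11.33 and 11.46. These ranges overlapped, and the log2 ratio of 0.07 did not pass (95% interval -0.04 to 0.19, adjusted p = 0.34). With each array centred on its median it was 0.19 and passed (adjusted p = 0.019). These are levels of Stat3 RNA, and the phosphorylation that activates the protein was not measured by the arrays.

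The mean of Socs3 was also higher in invading cells, but within the spread between samples. At 72 hours it read 9.80, 9.54, 9.82 and 10.23 in invading and 9.36, 9.35, 9.65 and 9.76 in non-invading cells. At 96 hours it read 8.74, 9.00, 8.98, 8.85 and 9.14 in invading and 8.62, 8.79, 8.87, 8.92 and 8.78 in non-invading cells. The fractions overlapped at both times. The log2 ratios were 0.31 (95% interval -0.03 to 0.66, adjusted p = 0.18, limma) and 0.15 (95% interval -0.04 to 0.33, adjusted p = 0.22). Leaving out invading replicate 2 at 72 hours gave 0.42 (adjusted p = 0.099), and leaving out invading replicate 1 at 96 hours gave 0.20 (adjusted p = 0.084). Socs3 also passed with each array centred on its median, at 0.39 (adjusted p = 0.065) and 0.27 (adjusted p = 0.028), and at 72 hours in 1 fit over all 18 samples (adjusted p = 0.083) and with the replicate number as a block (adjusted p = 0.056).

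Il33 was dim and stayed below a linear signal of 100 in every sample. At 96 hours it read 4.70, 5.29, 5.06, 4.96 and 5.25 in invading and 4.81, 4.78, 4.83, 4.72 and 4.67 in non-invading cells. In 4 of the 5 invading samples it lay above every non-invading sample, and the log2 ratio was 0.28 ± 0.10 (SE), a ratio of 1.22 (adjusted p = 0.059, limma). The call was lost without invading replicate 2 (adjusted p = 0.13), 3 (0.10) or 5 (0.13), or without non-invading replicate 4 (0.10) or 5 (0.12). At 72 hours it read 4.80, 5.03, 4.88 and 4.71 in invading and 4.95, 4.77, 4.68 and 4.75 in non-invading cells. These overlapped, with a log2 ratio of 0.07 (95% interval -0.14 to 0.27, adjusted p = 0.64).

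The difference between the fractions at 96 hours was also set against that at 72 hours, in 1 fit over all 18 samples. None of the 9 members passed (limma, adjusted p from 0.49 for Il6 to 0.94 for Lifr), where 0.0150% of all genes did, although 1623 genes had an unadjusted p under 0.05. For Il6 the log2 difference was 0.34 (95% interval 0.06 to 0.62), for Lif 0.32 (-0.19 to 0.83), and for Stat3 -0.16 (-0.32 to 0.00). The calls of Lif, Il6 and Il33 at 96 hours and of Stat3 at 72 hours are therefore not shown to belong to 1 time.

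**Figure D2:**
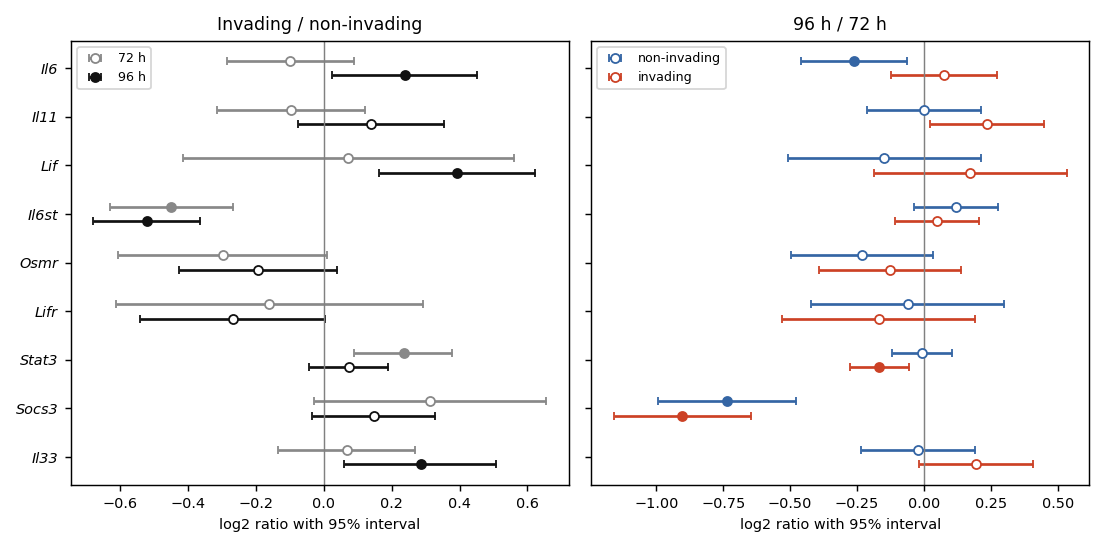
Log2 ratio (x axis) with 95% interval for each of the 9 members. The left panel plots invading over non-invading cells at 72 hours (grey) and 96 hours (black), and the right panel 96 over 72 hours in non-invading (blue) and invading (red) cells. Filled points passed the test at an adjusted p under 0.10. Il6st lies left of 0 at both times, and Socs3 shows the largest change with time in both fractions.

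Over time, Socs3 fell in both fractions, and no other member did so. In invading cells its log2 signals ran from 9.54 to 10.23 at 72 hours and from 8.74 to 9.14 at 96 hours. In non-invading cells they ran from 9.35 to 9.76 and from 8.62 to 8.92. The times did not overlap in either fraction, nor did any 96-hour sample reach a 72-hour sample of the other fraction. The log2 ratio of 96 to 72 hours was -0.90 ± 0.12 (SE) in invading cells, a ratio of 0.535 (adjusted p = 3.8e-05, limma), and -0.74 ± 0.12 (SE) in non-invading cells, a ratio of 0.601 (adjusted p = 0.00046). A second, dimmer probe set of Socs3 gave smaller log2 ratios of -0.52 (adjusted p = 0.0012) and -0.36 (adjusted p = 0.020).

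Stat3 fell in invading cells by 0.17 on the log2 scale (ratio 0.891, adjusted p = 0.028, limma), whereas in non-invading cells its log2 ratio was -0.01 (95% interval -0.12 to 0.11, adjusted p = 0.95). Il6 fell in non-invading cells by 0.26 on the log2 scale (ratio 0.834, adjusted p = 0.059). That call was lost without non-invading replicate 1 (adjusted p = 0.13), 2 (0.16) or 3 (0.13) of 72 hours, or replicate 3 (0.13), 4 (0.13) or 5 (0.11) of 96 hours. In invading cells the log2 ratio of Il6 was 0.07 (adjusted p = 0.63). In all, 2 of 9 members were lower at 96 hours in each fraction and none was higher, where 16.7% of all genes were lower and 18.2% higher in invading cells, and 12.2% lower and 15.4% higher in non-invading cells. With centring or a second quantile normalization 1 member, Il11, was higher and 2 were lower in invading cells. Il11 came close in invading cells, with a log2 ratio of 0.24 (95% interval 0.02 to 0.45, adjusted p = 0.10, not called), and passed without invading replicate 1 of 72 hours (0.31, adjusted p = 0.049). Il33 had a log2 ratio of 0.19 in invading cells (adjusted p = 0.18) and passed without invading replicate 1 of 96 hours (0.28, adjusted p = 0.026). For Il6st in non-invading cells the log2 ratio was 0.12 (adjusted p = 0.30), and without replicate 1 of 96 hours it was 0.18 and passed (adjusted p = 0.086). Time and anything else that samples of 1 time shared cannot be told apart from the labels.

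The genes around the members were counted in lists by their role. Of 6 other ligands of the family, Clcf1, which encodes a cardiotrophin-like cytokine, was lower in invading cells at both times, with log2 ratios of -0.23 (adjusted p = 0.066, limma) and -0.24 (adjusted p = 0.062). Ebi3, a subunit shared by several paired interleukins, was dim and was higher at 72 hours (log2 ratio 0.23, adjusted p = 0.032), and Ctf1, cardiotrophin 1, was lower at 96 hours (-0.21, adjusted p = 0.048). At 72 hours the call of Clcf1 was lost without invading replicate 2 or 3, or without non-invading replicate 1, 3 or 4. The lower calls also depended on the scaling of the arrays. Centred on the array median, the log2 ratios of Clcf1 were -0.15 (adjusted p = 0.22) and -0.13 (adjusted p = 0.25) and that of Ctf1 -0.09 (adjusted p = 0.33). The list then went from 1 higher and 1 lower at 72 hours to 2 and 0, and from 0 higher and 2 lower at 96 hours to 3 and 0, as it did with a second quantile normalization. Without rescaling, 13.0% of all genes were higher and 13.5% lower at 72 hours, and 16.7% and 14.7% at 96 hours. Osm, Il27 and Il31 did not pass at either time without rescaling, with log2 ratios from -0.01 to 0.15. With centring Osm passed at both times (adjusted p = 0.096 and 0.091, limma) and Il27 at 96 hours (0.072). With a second quantile normalization Osm (0.092) and Il27 (0.060) passed at 96 hours and Il31 at 72 hours (0.095). Without rescaling, of 4 other receptor genes only Cntfr, the chain for ciliary neurotrophic factor, passed between the fractions, with a log2 ratio of 0.21 at 96 hours (adjusted p = 0.090), below a linear signal of 100 in every sample. That call was lost without invading replicate 2, 3, 4 or 5, or without non-invading replicate 2, 4 or 5. Il27ra and Il31ra passed at 96 hours with a second quantile normalization (adjusted p = 0.019 and 0.086, limma) and with centring (0.017 and 0.093). Il6ra, the chain that binds interleukin 6 itself, read 9.39 ± 0.03 (SD) in invading and 9.41 ± 0.09 in non-invading cells at 72 hours and 9.22 ± 0.07 and 9.34 ± 0.13 at 96 hours. Its log2 ratios of -0.02 (adjusted p = 0.85) and -0.12 (adjusted p = 0.24) did not pass. Over time Il6ra fell in invading cells by 0.17 (adjusted p = 0.062) and Cntfr in non-invading cells by 0.33 (adjusted p = 0.012), where 16.7% and 12.2% of all genes fell.

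Of 9 JAK and STAT genes besides Stat3, 3 were higher and 1 lower in invading cells at 72 hours, against 13.0% and 13.5% of all genes, with a median log2 ratio of 0.12 against 0.04 over all genes. At 96 hours 1 was higher and 1 lower, where 16.7% and 14.7% of all genes were, without rescaling. The list became 3 and 1 with a second quantile normalization and 6 and 0 with centring. Stat6, which transmits interleukin 4 and 13 signals, was higher at both times, by a log2 ratio of 0.46 (adjusted p = 0.0020, limma) and 0.16 (adjusted p = 0.025). Jak2, a kinase bound to gp130, was lower at both times, with log2 ratios of -0.35 (adjusted p = 0.038) and -0.25 (adjusted p = 0.031), the second of which was -0.13 with centring (adjusted p = 0.19). Stat5a and Stat5b, which respond to many cytokines, were higher at 72 hours, with log2 ratios of 0.34 (adjusted p = 0.033) and 0.24 (adjusted p = 0.024). In invading cells 5 of the 9 fell from 72 to 96 hours and 1 rose, whereas in non-invading cells 1 fell, against 16.7% of all genes falling and 18.2% rising in invading cells and 12.2% falling in non-invading cells. The count of 5 was 3 with centring, which left out Stat4 and Stat5b (adjusted p = 0.16 and 0.20), and 4 with a second quantile normalization. It was 2 without invading replicate 2 of 72 hours, and 3 without replicate 1 or 4 of 72 hours or 1, 2 or 4 of 96 hours. Like Stat3, Stat6, Stat5a and Stat5b were among those that fell in invading cells, by 0.26, 0.25 and 0.14, and their log2 ratios in non-invading cells were 0.05, -0.12 and 0.02. The difference of these changes between the fractions did not pass for any of the 9 (limma; adjusted p = 0.20 for Stat6).

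Negative regulators of gp130 signalling moved in both directions. Of 15 genes, 3 were higher and 3 lower in invading cells at both times, and at 96 hours 4 were higher and 5 lower in all (6 and 3 with centring). Over all genes, without centring, 13.0% were higher and 13.5% lower at 72 hours, and 16.7% and 14.7% at 96 hours. The lower ones included Socs4, a relative of Socs3 known for the EGF receptor, with log2 ratios of -0.61 (adjusted p = 0.0047, limma) and -0.48 (adjusted p = 0.0032). They also included Ptpn2, a phosphatase of JAK and STAT proteins, with -0.64 (adjusted p = 0.0014) and -0.35 (adjusted p = 0.0061), and Pias2, an inhibitor of activated STAT proteins, with -0.41 (adjusted p = 0.0064) and -0.23 (adjusted p = 0.020; with centring -0.11, adjusted p = 0.22). Cish, a feedback gene of STAT5, was higher, with 0.37 (adjusted p = 0.013) and 0.33 (adjusted p = 0.0062). From 72 to 96 hours 4 of the 15 fell and 3 rose in both fractions. In each fraction 4 rose and 5 fell in all, where 18.2% of all genes rose and 16.7% fell in invading cells and 15.4% and 12.2% in non-invading cells. In non-invading cells the count of 5 was 2 without replicate 2 of 72 hours, and 3 without replicate 4 of 72 hours or without replicate 2 or 3 of 96 hours. Socs1, the closest relative of Socs3 in its action on JAK kinases and a gene outside the naming rule, was named after its values were seen. It fell with Socs3, by 0.54 (adjusted p = 0.00012) in invading and 0.43 (adjusted p = 0.0015) in non-invading cells. Socs4 and Ptpn2 rose, by 0.69 and 0.73 in invading cells (adjusted p = 9.9e-05 and 4.3e-06) and 0.56 and 0.44 in non-invading cells (adjusted p = 0.00098 and 0.00083).

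Genes known as STAT3 targets were counted over 30 members, several of which also answer to NF-kB, such as Bcl3, Saa3 and Lcn2. At 72 hours 8 were higher and 2 lower in invading cells, and at 96 hours 11 were higher and 3 lower, where 13.0% and 13.5% of all genes were higher and lower at 72 hours, and 16.7% and 14.7% at 96 hours. The shares over all genes cover dim genes too, whereas 29 of these 30 passed a linear signal of 100 in at least 1 sample. The median log2 ratio of the list was 0.06 and 0.09, against 0.04 and 0.02 over all genes. All 8 that were higher at 72 hours were higher at 96 hours too. Without non-invading replicate 2 the count of 8 was 5. With centring, which moved the median log2 ratio of all genes at 96 hours from 0.02 to 0.14, the split there was 19 higher and 1 lower. The shares of all genes with centring are not given here, so that split cannot be read as particular to this list. Without non-invading replicate 5, 1 was lower at 96 hours. The largest ratios belonged to Serpina3n, a secreted inhibitor of serine proteases that was already known from these data, with 2.42 and 3.65 (adjusted p = 0.0014 and 4.6e-05, limma). Tgm2, which crosslinks matrix proteins, was 1.61 and 1.68 times as high in invading cells (adjusted p = 0.0011 and 0.00016). The ratios of Ier3, an early stress gene, were 1.53 and 1.64 (adjusted p = 0.0063 and 0.00023). Saa3, an acute-phase protein, gave 1.31 and 1.75 (adjusted p = 0.0069 and 0.012).

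**Figure D3:**
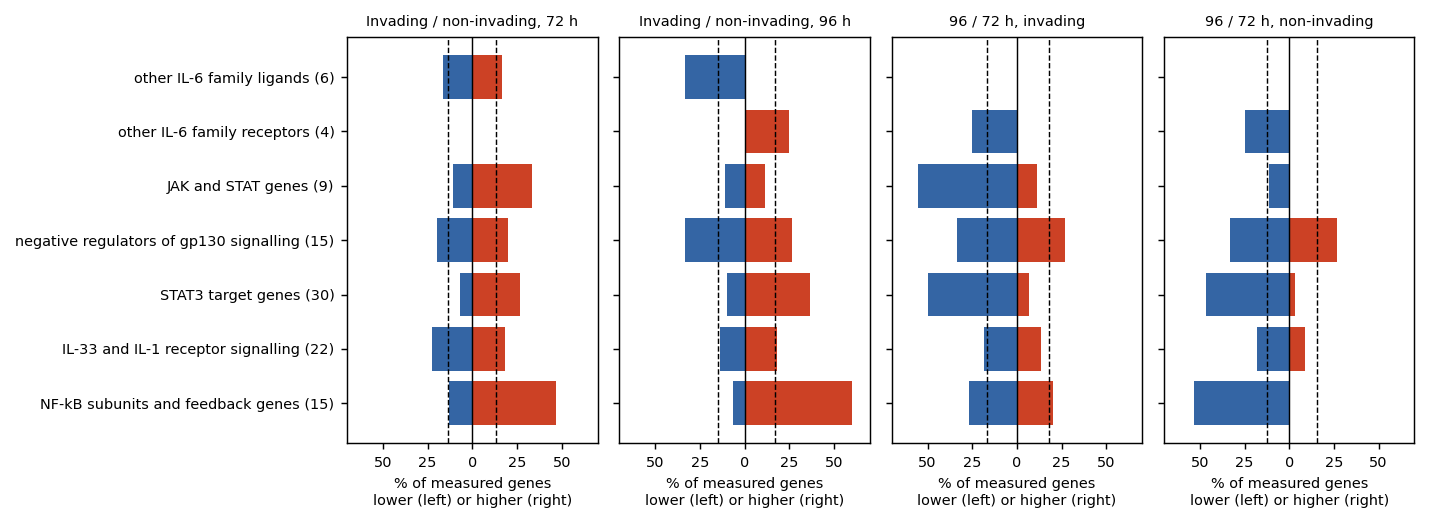
Share of the measured genes of each list (number in brackets) that were lower (blue, left) or higher (red, right) at an adjusted p under 0.10, as a percentage on the x axis, in 4 comparisons. Dashed lines give the same shares over all 19938 genes. STAT3 target genes and NF-kB genes had 8 and 7 higher members in invading cells at 72 hours, and 11 and 9 at 96 hours, and 15 of the 30 STAT3 target genes were lower at 96 than at 72 hours in invading cells.

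From 72 to 96 hours 15 of the 30 STAT3 target genes fell and 2 rose in invading cells, and 14 fell and 1 rose in non-invading cells. Of all genes 16.7% fell and 18.2% rose in invading cells, and 12.2% fell and 15.4% rose in non-invading cells. In both fractions 13 fell and 1, Mcl1, rose. The median log2 ratio was -0.24 in invading and -0.29 in non-invading cells, against -0.03 and -0.02 over all genes. Outside Serpina3n, Saa3 and Tgm2, the genes in this paragraph lie outside the naming rule and were named after their values were seen. The acute-phase genes Lcn2, which binds bacterial siderophores, and Hp, which encodes haptoglobin, fell most. Lcn2 read 7.65 ± 0.37 (SD) in invading cells at 72 hours and 6.62 ± 0.24 at 96 hours, and 8.16 ± 0.56 and 6.46 ± 0.31 in non-invading cells, with log2 ratios of -1.03 (adjusted p = 0.0031, limma) and -1.70 (adjusted p = 8.5e-05). For Hp the log2 ratios were -1.23 (adjusted p = 0.0015) and -1.07 (adjusted p = 0.0058). Bcl3, a nuclear partner of NF-kB, fell by 0.69 and 0.68 on the log2 scale (adjusted p = 3.5e-05 and 9.4e-05). The kinase gene Pim1 fell by 0.56 and 0.64 (adjusted p = 0.00013 and 9.4e-05) and Cebpd, a transcription factor of the acute phase, by 0.54 and 0.58 (adjusted p = 0.0030 and 0.0027). Serpina3n fell by 0.47 and 1.06 (adjusted p = 0.065 and 0.00050) and Saa3 by 0.55 and 0.97 (adjusted p = 0.030 and 0.00089). Mcl1, a survival factor of the BCL2 family, rose by 0.59 and 0.38 (adjusted p = 1.9e-05 and 0.0014). Leaving out any 1 sample left 12 to 16 of the list falling in invading and 13 to 16 in non-invading cells.

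**Figure D4:**
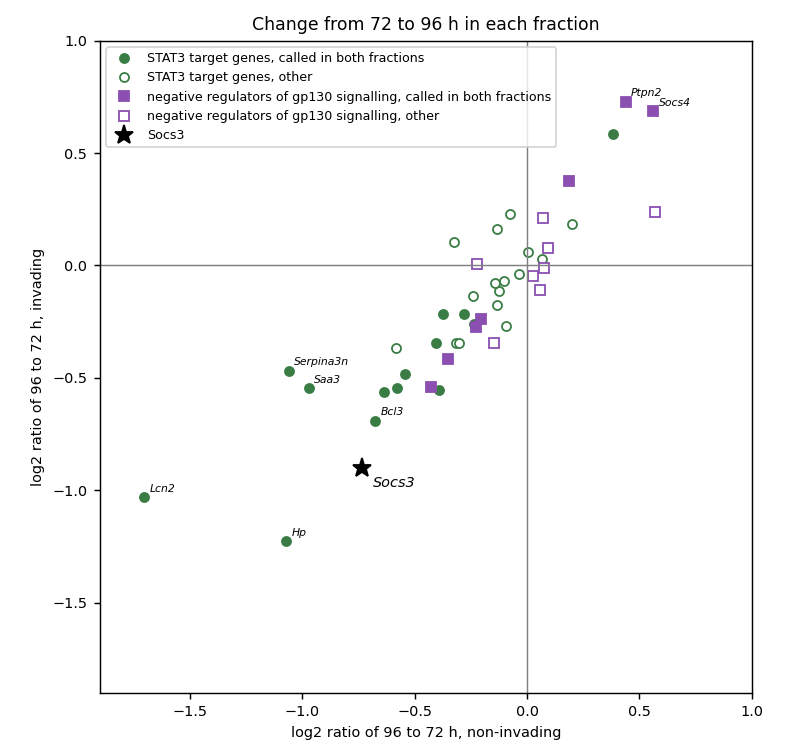
Log2 ratio of 96 to 72 hours in non-invading (x axis) and invading (y axis) cells for the 30 STAT3 target genes (green circles), the 15 negative regulators of gp130 signalling (purple squares) and Socs3 (star). Filled symbols passed the test in both fractions, and those with a log2 ratio beyond 0.65 in either direction in at least 1 fraction are named. Socs3, Lcn2 and Hp lie far down and left, and Ptpn2 and Socs4 up and right.

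Of 22 genes of interleukin 33 and interleukin 1 receptor signalling, at 72 hours 4 were higher and 5 lower in invading cells. At 96 hours these counts were 4 and 3, with 7 lower without invading replicate 1 and 5 without non-invading replicate 2, and 7 higher and 2 lower with centring. Over all genes, without centring, the shares were 13.0% higher and 13.5% lower at 72 hours, and 16.7% and 14.7% at 96 hours. Myd88, the adaptor of both receptors, was higher, with log2 ratios of 0.41 at both times (adjusted p = 0.0066 and 0.00056, limma), as was Ikbkg, the regulatory subunit of the kinase that frees NF-kB, with 0.50 (adjusted p = 0.0027) and 0.43 (adjusted p = 7.3e-05). Tab2 and Tab3, which link the receptors to the kinase TAK1, were lower, with -0.46 and -0.26 for Tab2 (adjusted p = 0.0016 and 0.020; with centring 0.11 at 96 hours) and -0.47 and -0.41 for Tab3 (adjusted p = 0.0035 and 0.0033). Il1rap, the co-receptor of interleukin 33 and a gene outside the naming rule that was named after its values were seen, was lower at 72 hours with a log2 ratio of -0.38 (adjusted p = 0.018) and had -0.22 at 96 hours (adjusted p = 0.16).

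Of 15 NF-kB subunits and feedback genes, 7 passed as higher and 2 as lower at 72 hours. At 96 hours 9 were higher and 1 was lower. For comparison, 13.0% of all genes were higher and 13.5% lower at 72 hours, and 16.7% and 14.7% at 96 hours. These shares cover dim genes too, whereas all 15 of this list passed a linear signal of 100 in at least 1 sample. The count of 7 was 3 without invading replicate 1 or without non-invading replicate 2, 3 or 4. The median log2 ratios were 0.19 and 0.23, against 0.04 and 0.02 over all genes. Rela, the main activating subunit, was higher in invading cells, with log2 ratios of 0.37 (adjusted p = 0.011, limma) and 0.33 (adjusted p = 0.0024), whereas its relative Rel was lower, with -0.75 (adjusted p = 0.0011) and -0.50 (adjusted p = 0.00073). The feedback genes Tnip1 and Zc3h12a, which restrain NF-kB and degrade cytokine messages such as that of Il6, were higher, with 0.40 and 0.31 for Tnip1 (adjusted p = 0.017 and 0.0018) and 0.32 and 0.36 for Zc3h12a (adjusted p = 0.055 and 0.0068). Over time 8 of the 15 fell and none rose in non-invading cells, whereas in invading cells 4 fell and 3 rose. Among all genes 12.2% fell and 15.4% rose in non-invading cells, and 16.7% and 18.2% in invading cells. Without non-invading replicate 1 or 3 of 72 hours, 5 of the 15 fell in non-invading cells. The test of that difference passed for none of the 15 genes (limma).

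The labelled cell type was checked by its markers. Of 10 fibroblast markers, 8 were above a linear signal of 100 in every sample, among them Col1a1, Vim, Pdgfra and Dcn, while Thy1 and Fap were below it in every sample. At 72 hours the 10 summed to 43656 to 49286 in invading against 48043 to 51789 in non-invading cells. At 96 hours the sums were 46377 to 51932 against 48106 to 53762. At 72 hours 1 was higher and 3 lower, where 13.0% and 13.5% of all genes were. At 96 hours 0 were higher and 3 lower, where 16.7% and 14.7% were. The lower ones were Col1a1, Col1a2 and Col3a1 at both times, of which Col3a1 kept its call with centring. Of 9 leukocyte markers 7 were below 100 in every sample, including the defining Ptprc, Adgre1 and Csf1r, while Cd14 passed it in every sample and Cd68 in 16 of 18. The summed linear signal of the 9 leukocyte markers was nevertheless higher in invading cells, at 878 to 963 against 788 to 823 at 72 hours and 688 to 835 against 589 to 712 at 96 hours. In each fraction it was lower at 96 than at 72 hours. Cd14 was higher in invading cells at both times (log2 ratio 0.29, adjusted p = 0.021, and 0.42, adjusted p = 0.058, limma). Cd68 was higher at 96 hours (0.56, adjusted p = 0.0033, limma) and did not pass at 72 hours (0.24, adjusted p = 0.28). No other leukocyte marker passed between the fractions without rescaling. The 8 epithelial markers, of which Krt8 was above 100 in every sample and Epcam, Cdh1 and Sftpc in none, summed to 656 to 778 against 584 to 663 and to 642 to 670 against 556 to 636. Krt8 was higher in invading cells at both times (log2 ratio 0.53, adjusted p = 0.021, and 0.32, adjusted p = 0.027, limma). Epcam and Cdh1 were higher at 96 hours (0.18, adjusted p = 0.083, and 0.15, adjusted p = 0.094, limma). Of the 7 endothelial markers, 2 passed 100 in at least 1 sample, while Pecam1 and Cdh5 were below it in every sample. The 7 summed to 389 to 438 against 359 to 408 and to 373 to 399 against 334 to 384. Of the 8 mast cell and innate lymphoid markers, 2 were above 100 in every sample and 3 in at least 1 sample, while Kit and Cpa3 were below it in every sample. The sums of the 8 were 1010 to 1148 against 1083 to 1164 and 1104 to 1178 against 1103 to 1462. The part of these markers in the results was not tested.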

How the data were processed

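RNA of the 18 samples was hybridized to Affymetrix Mouse Gene 1.0 ST arrays. The values deposited by the authors are log2 signals per probe set, summarized by RMA with sketch-quantile normalization in Affymetrix Expression Console (version 1.2 in the submitters' processing notes), and were used as deposited. They ran from 2.94 to 14.7, and samples of a group correlated at 0.991 to 0.996, with none identical. Of 35556 probe sets, 21789 had exactly 1 gene symbol in the array's annotation, 1621 several and 12146 none.

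For the fractions, lmFit and eBayes of limma 3.58.1 (R 4.3.3) were run separately on the samples of 72 and of 96 hours, with no covariate. The times, and the difference between them, were compared in 1 fit over all 18 samples. P-values were adjusted by Benjamini and Hochberg over all probe sets, and a call needed an adjusted p under 0.10. The scripts were tested on simulated data. The labels name the samples biological replicates and do not say what each culture shared, so p-values measure the spread between these samples.

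The members, the gene lists and the naming rule were chosen with earlier results of these data known, so no list is independent evidence. The rule named all 10 members, the ligands and receptors of the family, up to 4 called genes per list with the largest mean ratio over both times, and the nearest genes of members called above 1.5-fold, of which there were 0. Some genes of the lists, among them Cntf, Il11ra1, Il11ra2, Jak3, Il1r1, Irak4, Chuk and Nfkb1, were not analysed here. Alternatives were another normalization, centring, a limit on dim probe sets, an intensity trend, 1 fit for all samples, the replicate number as a block, a stricter threshold and leaving out each sample.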

Additional observations from a re-analysis of the deposited data

Results flagged for a closer look

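In the non-invading samples of 72 hours, Il6 read 4.14 in replicate 4, far below the nearest of the other 3 samples at 4.41, a gap of 0.88 of the whole range of the group. Stat3 read 11.66 in replicate 4 of the invading samples at 72 hours and the nearest sample 11.63, a gap of 0.846 of a narrow range. Of 36 groups of samples examined for the 9 members, 2 had such a distant sample, where chance gives about 1 in 20.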

How the results depend on the processing

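Over 1033 recomputed values of the 9 members, 967 kept their direction and their side of the threshold, 21 lost the threshold, 25 passed it newly and 20 changed sign. Il6st kept its call at both times in every alternative run (adjusted p up to 0.019 at 72 hours and 0.0018 at 96 hours), as did Lif at 96 hours, Stat3 at 72 hours and over time in invading cells, and Socs3 over time in both fractions. At 96 hours Il6 lost its call in 7 of 18 alternatives and Il33 in 6 of 18, and the fall of Il6 in non-invading cells was lost in 8 of 26. Where probe sets had to exceed 100 on the linear scale in at least 1 sample, Il6 and Il33 had no value.

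Of the 4 members called between fractions at 96 hours, 2 (Lif and Il6st) passed at an adjusted p under 0.05. After centring each array on its median 7 were called, 6 higher and 1 lower. Centring moved the median log2 ratio of all genes from 0.04 to 0.12 at 72 hours and from 0.02 to 0.14 at 96 hours, and a second quantile normalization moved it to 0.10 and 0.11. Leaving out 1 sample gave 2 to 5 called members at 96 hours, 2 to 3 at 72 hours, 2 to 3 over time in invading cells, 1 to 3 in non-invading cells, and 0 to 0 for the difference between times. The 2 members lower over time in non-invading cells became 1, Socs3, with that limit on dim probe sets, with those groups fitted alone, and under the stricter threshold.

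Among the lists at 96 hours, the JAK and STAT genes went from 2 called to 4 with the second quantile normalization (3 higher, 1 lower) and to 6 with centring (6 higher), and the other receptors from 1 to 3 with either. Over time in invading cells, the other receptors went from 1 to 0 with centring, an alternative chosen after seeing the data, as was leaving out samples in the counts of lists. Signs changed only for values that had not passed. The log2 ratio over time became -0.065 for Il6st in invading cells with the second quantile normalization, and for Il11 in non-invading cells -0.013 with that and -0.015 with centring. With 1 sample left out, it ran in non-invading cells from -0.067 to 0.085 for Il11, from -0.059 to 0.031 for Il33, from -0.279 to 0.056 for Lif, from -0.203 to 0.096 for Lifr and from -0.036 to 0.023 for Stat3. Lif between the fractions at 72 hours ran from -0.059 to 0.277, and Lifr in the difference between times from -0.265 to 0.034. The cause of these changes was not tested.

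The replicate numbers were not taken as a pairing. The paper's methods name a gene-wise limma test for the arrays, whereas the legend of its receptor figure names a paired t-test. That figure draws its RNA levels from these arrays. Whether both fractions of a number came from 1 culture is not given in the labels. Once group means were removed, the correlation between the fractions' samples of equal number ran from -0.08 to 0.09 (72 hours) and from 0.05 to 0.17 (96 hours). A sample's best partner carried its own number in 1 of 4 and 4 of 5 cases. With the replicate number as a block, 3 members were called at 72 hours (Socs3 added), 5 at 96 hours (Osmr added), 2 over time in each fraction and 0 for the difference, the NF-kB list at 72 hours went from 9 to 5 called, and the other ligands at 96 hours from 2 to 1. The number of arrays, the dimness of Il6, Il33 and Il11 and the modest signal of Lif limit what can be detected.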
